A study of Mus musculus with 24 samples.

Results

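The genes Postn, Tnc, Sparc, Thbs1, Thbs2, Ccn1 and Ccn2 encode matricellular proteins. These are secreted, sit in the extracellular matrix and act on the cells around it. Fn1, the gene of the matrix protein fibronectin, was listed with them. All of these genes were chosen by name, from the 22180 that had a probe row with exactly 1 gene symbol. All 8 passed the filter on low values that 15496 genes passed. The set was selected on measured values of these arrays: the difference of Postn between diets in CD11c- macrophages and the difference of Tnc between diets in preadipocytes. Both of those comparisons are described here for every member and are not tested. Each other comparison that uses arrays of ND CD11c- ATM, HFD CD11c- ATM, ND PA or HFD PA shares arrays with them.

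RNA had been measured on single-colour arrays in stromal cells of the gonadal fat of male C57Bl/6 mice. The cells had been released with collagenase and sorted live by flow cytometry. The populations were macrophages of adipose tissue (ATM) without or with CD11c, its dendritic cells (ATDC), and preadipocytes (PA), from which fat cells develop. Mice had been fed a normal diet (ND), a high-fat diet (HFD, 60% fat), or HFD for 12 weeks followed by 8 weeks off it (weight loss, WL). The feeding time of the HFD groups is not given here, so a match in time between WL and HFD cannot be checked. The 24 arrays made 9 groups, with 2 arrays each for ND CD11c- ATM, WL CD11c- ATM and ND ATDC, and 3 each for HFD CD11c- ATM, HFD CD11c+ ATM, WL CD11c+ ATM, HFD ATDC, ND PA and HFD PA. No group carried an engineered allele or a drug, according to the labels. Each ND macrophage and ND dendritic cell group was made of 2 pools drawn from 4 mice. Preadipocyte groups and HFD groups were made of 3 pools with 3 to 4 mice in each. How WL samples were pooled was not stated in the labels, and CD11c+ ATM of ND mice had not been purified because they were few. The spread between arrays is therefore a spread between samples that are mostly pools, not between single mice.

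Matricellular proteins bind collagen, integrins and growth factors, and most are made at low levels in resting tissue and at higher levels in wounds and fibrosis. Periostin (Postn), SPARC (Sparc) and fibronectin (Fn1) take part in assembling collagen and fibronectin fibres. Tenascin C (Tnc) and the thrombospondins (Thbs1, Thbs2) modulate cell adhesion, and thrombospondin 1 can release latent TGF-beta. The CCN proteins CCN1 (CYR61) and CCN2 (CTGF) bind integrins, and their genes are textbook targets of TGF-beta, of YAP with TEAD factors, and of the serum response factor SRF. In fat, fibroblasts and preadipocytes are the main known source of most of these proteins, and macrophages make fibronectin and thrombospondin 1.

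RefSeq promoter entries were found for 5 of the 8 members, in 7 entries. The 250 bases before an annotated start are shown for Postn and Sparc, whose levels ran together across the 24 arrays (r = 0.932), and for Ccn1, which had the largest difference of the members between weight loss and HFD in both macrophage populations. The GRCm38.p6 positions are chr3:54360857-54361106 on the plus strand for Postn, chr11:55420081-55420330 on the minus strand for Sparc and chr3:145649986-145650235 on the minus strand for Ccn1. The Postn stretch is that of the more downstream of 2 annotated starts. Each is written 5′ to 3′ on the gene's strand, and capitals mark every match to a searched motif.
Postn: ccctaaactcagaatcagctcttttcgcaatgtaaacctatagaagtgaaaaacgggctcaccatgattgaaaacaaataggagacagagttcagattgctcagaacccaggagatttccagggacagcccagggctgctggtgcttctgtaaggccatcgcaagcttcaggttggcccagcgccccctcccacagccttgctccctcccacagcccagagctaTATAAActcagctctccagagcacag
Sparc: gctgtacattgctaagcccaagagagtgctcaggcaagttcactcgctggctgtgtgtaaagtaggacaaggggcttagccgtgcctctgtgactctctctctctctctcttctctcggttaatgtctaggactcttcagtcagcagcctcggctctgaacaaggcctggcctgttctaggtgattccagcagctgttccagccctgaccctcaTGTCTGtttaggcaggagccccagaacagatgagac
Ccn1: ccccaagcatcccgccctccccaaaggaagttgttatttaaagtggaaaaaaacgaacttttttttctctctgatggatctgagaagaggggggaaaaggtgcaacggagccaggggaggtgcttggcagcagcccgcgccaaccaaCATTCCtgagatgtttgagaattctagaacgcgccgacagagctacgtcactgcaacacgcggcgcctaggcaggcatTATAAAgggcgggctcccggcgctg

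The motifs searched were GGAATG (the core bound by TEAD factors), TGANTCA (AP-1), CAGACA (a SMAD element) and the SRF CArG box, on both strands, and TATAAA on the gene's strand. A match is a description of these letters and not a site of binding. Of 32851 promoter entries of the same length, 12.6% held the TEAD core, 6.75% the AP-1 motif, 1.47% the CArG box, 17.1% the SMAD element and 7.59% the TATA motif. Ccn1 held the TEAD core, read as CATTCC on its own strand, 103 bases before the start, and TATAAA 25 bases before it. Postn held TATAAA 26 bases before the start printed here, and no match in the stretch before its other annotated start. Sparc held the SMAD element, read as TGTCTG, 36 bases before the start. Thbs2, which is not printed, held that element at 67 and 44 bases before the start. Tnc, with 2 annotated starts and also not printed, held it 71 bases before 1 of them. The same TATAAA lay 205 bases before that start and 126 bases before the other, because the 2 stretches overlap.

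In the same assembly Postn lies at chr3:54359267-54391041, Sparc at chr11:55394159-55420080, Ccn1 at chr3:145646971-145649985 and Ccn2 at chr10:24595442-24598683. Thbs1 lies at chr2:118111876-118127133, Thbs2 at chr17:14665500-14694262, Tnc at chr4:63959785-64047015 and Fn1 at chr1:71585473-71653280. All 8 are protein-coding. The labels do not name the build of the arrays' annotation, so these positions are those of the RefSeq table.

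Levels below are RMA-normalised log2 values, in which a difference of 1 is a doubling of signal, and they are compared only within a gene. Array medians ran from 2.96 to 3.15, and a level at or under it cannot be told from background here. Each difference carries the standard error (SE) from 1 limma fit over all 24 arrays, and an adjusted p is that of limma after Benjamini-Hochberg adjustment over 15496 genes, with a threshold of 0.05.

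The sorted populations carried their defining markers, with signs of mixing. The macrophage markers Adgre1 and Csf1r were between 9.43 and 10.69 on every macrophage array, and Flt3 was between 8.03 and 8.57 on the ATDC arrays and at most 4.88 on any other array. Pdgfra was 9.55 or more on every PA array. In ATM and ATDC the median of 14 preadipocyte and fibroblast markers ranged from 5.31 to 8.57, against 9.71 to 10.3 in PA. By group it was 5.48 to 6.09 in ND CD11c- ATM, 6.63 to 8.54 in HFD CD11c- ATM and 7.74 to 8.57 in WL CD11c- ATM. It was 5.31 to 6.59 in HFD CD11c+ ATM, 6.81 to 7.41 in WL CD11c+ ATM, 5.81 to 6.02 in ND ATDC and 5.67 to 5.93 in HFD ATDC. The median of 14 macrophage markers was 4.37 to 5.83 in ND PA and 6.28 to 8.39 in HFD PA. It was 8.59 to 8.69 in ND ATDC and 8.18 to 9.46 in HFD ATDC. Adgre1 reached 9.69 in HFD ATDC, inside the range of the macrophage arrays. HFD CD11c- ATM replicate 3 stood apart, with the fibroblast markers at 8.54 against 6.63 and 6.65 on the other 2 arrays of its group, and ND PA replicate 1 was the highest of its group for 7 of the 8 members. In sorted bulk samples, more cells of a type and more RNA per cell cannot be told apart.

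**Figure D1:**
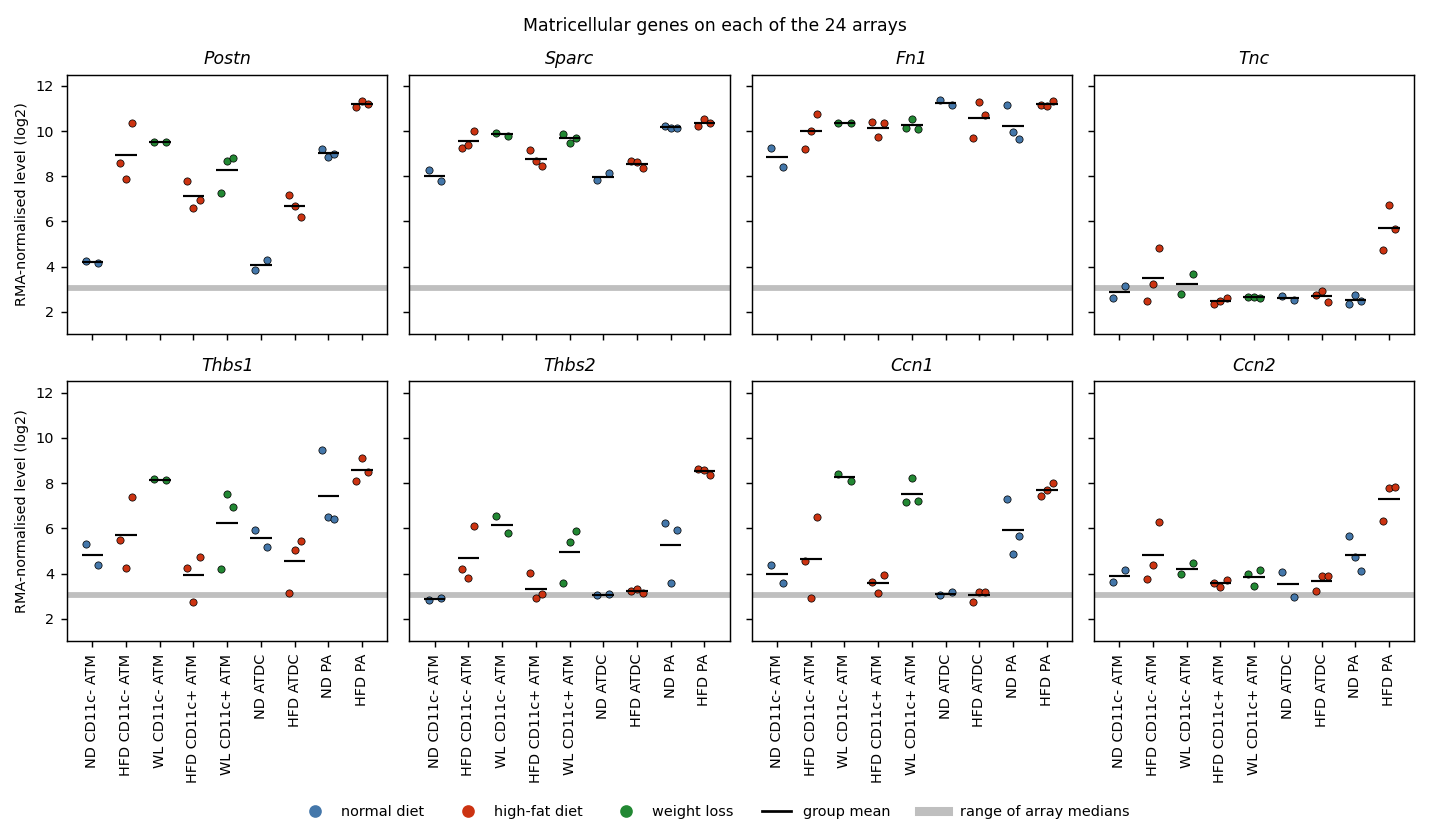
Level of each member (RMA-normalised log2, vertical axis) on each array, by group. Points are arrays, black lines group means, and the grey band is the range of array medians, 2.96 to 3.15. Postn stands at 3.85 to 4.28 on the 4 ND macrophage and dendritic cell arrays and at 6.20 or more on all others, while Ccn1 is at 7.18 or more on the 5 WL arrays.

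Postn, the gene of periostin, was close to the array median in macrophages and dendritic cells of lean mice and far above it in those of mice on HFD or after weight loss. It measured 4.23 and 4.14 in ND CD11c- ATM, 8.59, 7.86 and 10.36 in HFD CD11c- ATM, and 9.50 and 9.50 in WL CD11c- ATM. In CD11c+ ATM it measured 7.80, 6.59 and 6.96 on HFD and 7.25, 8.69 and 8.82 after weight loss. The ND arrays lay under every HFD and WL macrophage array, and the HFD and WL arrays overlapped. The difference between HFD and ND CD11c- ATM, one of the values the set was chosen by, was 4.75 ± 0.54, and 4.04 with HFD replicate 3 left out. The fibroblast markers moved with it, by a mean of 1.49 over all 3 HFD arrays and 0.86 without replicate 3; their part in the difference was not tested.

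In dendritic cells Postn rose on HFD, in a call that sat at the threshold. It measured 3.85 and 4.28 in ND ATDC and 7.15, 6.66 and 6.20 in HFD ATDC, with no overlap. The difference was 2.61 ± 0.54 (limma adjusted p = 0.0466, higher on 3 of 3 HFD arrays), and Postn was the only member called, 1 of 8, where 0.155% of all tested genes were called higher and 0.103% lower. It was lost when any of the 5 arrays was left out, with an adjusted p of 0.236 without ND replicate 1, 0.0911 without ND replicate 2, and 0.0997, 0.0896 and 0.0768 without HFD replicates 1, 2 and 3. In these fits the difference lay between 2.37 and 2.84, and it was 2.49 with the replicate block (adjusted p = 0.0986). The fibroblast marker level of 5.67 to 5.93 in HFD ATDC overlapped with the 5.81 to 6.02 of ND ATDC. Of the 14 markers, 3 were higher and 2 lower in HFD ATDC without overlap and limma called 0, which with so few genes called over all says little about them. Their median difference was -0.07, and Pdgfra had a mean of 2.83 on ND and 3.70 on HFD, with overlap. The macrophage marker level was 8.59 to 8.69 in ND ATDC and 8.18 to 9.46 in HFD ATDC, with overlap. The part of the fibroblast and macrophage markers in the Postn difference was not tested. Collagen genes that ran with Postn across the arrays were higher by 1.89 (Col3a1, adjusted p = 0.190) and 1.58 (Col6a1, adjusted p = 0.331), both without overlap and not called. Both were named after their values were seen. Of 14 collagens and genes that process them, 6 were higher and 1 lower without overlap, and limma called 0. Their median difference was 0.60, and 1851 of all tested genes were higher without overlap.

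Over all groups, the order of Postn from high to low was HFD PA, WL CD11c- ATM, ND PA, HFD CD11c- ATM, WL CD11c+ ATM, HFD CD11c+ ATM, HFD ATDC, ND CD11c- ATM and ND ATDC. Neighbours from ND PA down to HFD ATDC overlapped, and so did the 2 lowest groups. At fibroblast markers between 5.48 and 6.09, the 4 ND macrophage and dendritic cell arrays had Postn at 3.85 to 4.28. In the same marker range the HFD ATDC arrays had it at 6.20 to 7.15. Preadipocytes had a Postn mean of 9.02 on ND and 11.19 on HFD, with overlapping fibroblast markers. What cells of that type, mixed into the other populations, added to Postn on each diet was not tested.

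**Figure D2:**
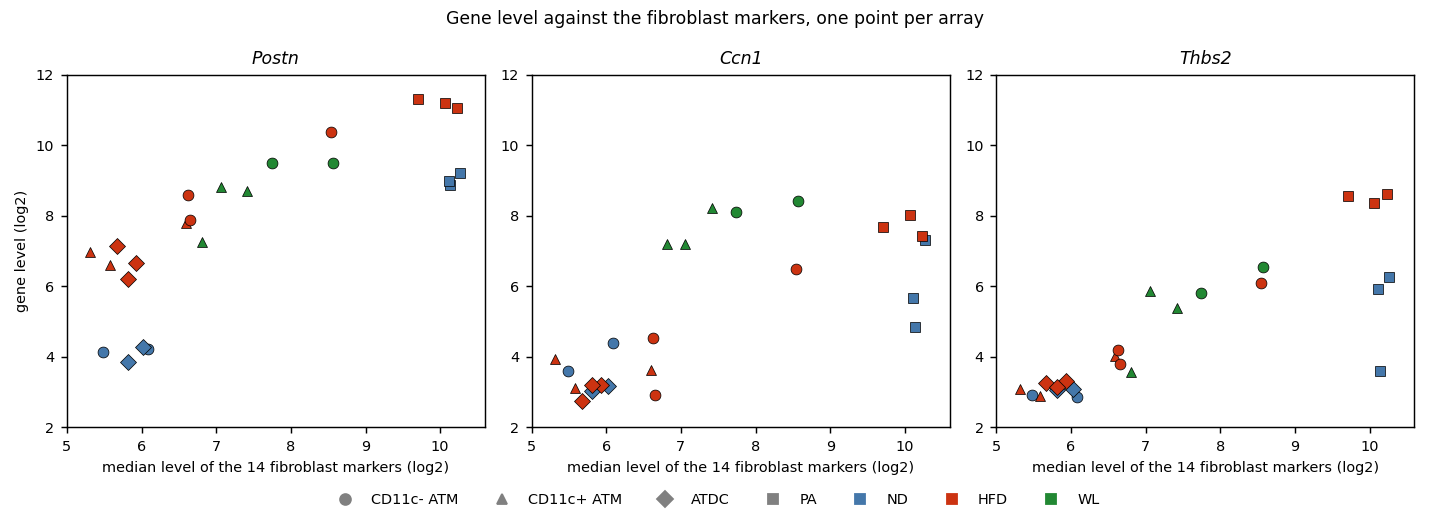
Level of Postn, Ccn1 and Thbs2 (log2, vertical axes) against the median level of 14 preadipocyte and fibroblast markers (log2, horizontal axes), one point per array; shape is the cell type and colour the diet. At the left of the Postn panel the HFD ATDC arrays, at 6.20 to 7.15, lie above the ND arrays, at 3.85 to 4.28, while Thbs2 in macrophages climbs with the markers.

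Across 24 arrays Postn correlated with the fibroblast marker level at r = 0.799, and over the 13 macrophage arrays at r = 0.819. For Thbs2 the values were 0.824 and 0.925, and for Sparc 0.884 and 0.860. These are descriptions of arrays that share groups, so they carry no test.

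Sparc, which encodes a collagen-binding glycoprotein, was well above the array median everywhere and, like Postn, lowest in the ND macrophages and dendritic cells, over a narrower range. It measured 8.26 and 7.80 in ND CD11c- ATM, 9.27, 9.40 and 9.98 in HFD CD11c- ATM, and 9.93 and 9.78 in WL CD11c- ATM. In CD11c+ ATM it measured 9.18, 8.66 and 8.44 on HFD and 9.89, 9.47 and 9.70 after weight loss. The WL arrays lay above every HFD array in CD11c+ ATM but not in CD11c- ATM. The diet difference in CD11c- ATM was 1.52 ± 0.25, described without a test.

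Fn1, the fibronectin gene, was high in all groups and had the smallest SD of the members over the 24 arrays, 0.77. Its group means ran from 8.84 in ND CD11c- ATM to 11.26 in ND ATDC, and each group overlapped with its neighbour in that order. It measured 9.26 and 8.42 in ND, 9.20, 10.02 and 10.75 in HFD and 10.36 and 10.34 in WL CD11c- ATM. In ATDC it measured 11.35 and 11.16 on ND and 9.70, 11.27 and 10.71 on HFD, with overlap. Fn1 was the only member with its highest mean in ND ATDC.

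Tnc, the tenascin C gene, was at the array median outside preadipocytes of HFD mice. It measured 4.73, 6.74 and 5.64 in HFD PA. On the other 21 arrays it was above 3.66 only on HFD CD11c- ATM replicate 3, at 4.81, the array with the highest fibroblast markers of its group. No array of HFD CD11c+ ATM, WL CD11c+ ATM, ND ATDC, HFD ATDC or ND PA was above its own median for Tnc.

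The thrombospondins were both highest in HFD PA, and in macrophages their means were higher after weight loss than on HFD, with wide spread between arrays and no call. Thbs1 measured 5.29 and 4.37 in ND, 5.48, 4.24 and 7.39 in HFD, and 8.19 and 8.12 in WL CD11c- ATM. Thbs2 measured 2.85 and 2.91 in ND, 4.20, 3.78 and 6.10 in HFD, and 6.54 and 5.80 in WL CD11c- ATM. In both genes HFD replicate 3 was the highest HFD array, and it overlapped with the WL arrays for Thbs2 but not for Thbs1.

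In CD11c+ ATM, Thbs1 measured 4.26, 2.74 and 4.75 on HFD and 4.22, 7.50 and 6.95 after weight loss. Thbs2 measured 4.02, 2.90 and 3.08 on HFD and 3.57, 5.39 and 5.86 after weight loss. WL replicate 1 lay within the HFD range for both genes, and replicates 2 and 3 lay above it. That array also had the lowest Postn of its group, 7.25, and the lowest fibroblast markers, 6.81.

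Ccn1, an integrin ligand induced by mechanical and growth signals, was the member whose macrophage arrays separated weight loss from both diets. It measured 4.39 and 3.60 in ND, 4.54, 2.93 and 6.50 in HFD, and 8.42 and 8.11 in WL CD11c- ATM. In CD11c+ ATM it measured 3.62, 3.12 and 3.94 on HFD and 7.18, 8.21 and 7.20 after weight loss. The 5 WL arrays lay above all 8 ND and HFD macrophage arrays. ATDC stood at the array median, at 2.75 to 3.19 over all 5 arrays.

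Its paralogue Ccn2 did not follow. Ccn2 measured 3.77, 4.38 and 6.30 in HFD and 3.98 and 4.45 in WL CD11c- ATM. In CD11c+ ATM it measured 3.58, 3.41 and 3.70 on HFD and 3.97, 3.45 and 4.14 after weight loss. WL and HFD arrays overlapped in both populations. Over all 24 arrays Ccn1 and Ccn2 correlated at r = 0.56, and over the 13 macrophage arrays at r = 0.22, whereas Ccn2 and Tnc correlated at r = 0.90 and 0.95. Tnc was under the array median on most macrophage arrays. HFD CD11c- ATM replicate 3, which stood apart, had the highest macrophage value of both Tnc (4.81) and Ccn2 (6.30), so little is read from the last value. A second probe row of Ccn2 lay near the array median in every group, with group means from 2.56 to 3.33, and was not used.

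In CD11c- ATM, weight loss against HFD called 1 of 8 members, Ccn1, higher by 3.61 ± 0.71 (limma adjusted p = 0.0097, higher on 2 of 2 arrays). Of all tested genes 1.17% were called higher and 1.79% lower. The call was lost without WL replicate 1 (3.45, adjusted p = 0.0606) and in a fit on these 5 arrays alone (adjusted p = 0.208). Thbs1 was higher by 2.46 ± 1.03 without overlap and not called (adjusted p = 0.211). Postn differed by 0.56 ± 0.54 (adjusted p = 0.646) and Sparc by 0.30 ± 0.25 (adjusted p = 0.584), both with overlap. These HFD arrays also entered the diet difference by which Postn was chosen, so the Postn result and the count are not independent of it. The median difference over the members was 0.46, against -0.09 over all tested genes.

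In CD11c+ ATM, weight loss against HFD called 2 of 8 members, where 0.632% of genes were called higher and 0.697% lower. Ccn1 rose by 3.97 ± 0.64 (limma adjusted p = 0.0078, higher on 3 of 3 arrays), and the call held under each of the 15 alternatives run. Sparc rose by 0.93 ± 0.23 (adjusted p = 0.0485, higher on 3 of 3 arrays). Its call was lost in 10 of 15 alternatives, among them without HFD replicate 2 (adjusted p = 0.157), HFD replicate 3 (0.205), WL replicate 1 (0.134) or WL replicate 2 (0.0566) and with the replicate block (0.0585). The count of members called was then 1. Thbs1 (2.31 ± 0.92, adjusted p = 0.178), Thbs2 (1.61 ± 0.64, adjusted p = 0.177) and Postn (1.14 ± 0.48, adjusted p = 0.201) were not called.

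**Figure D3:**
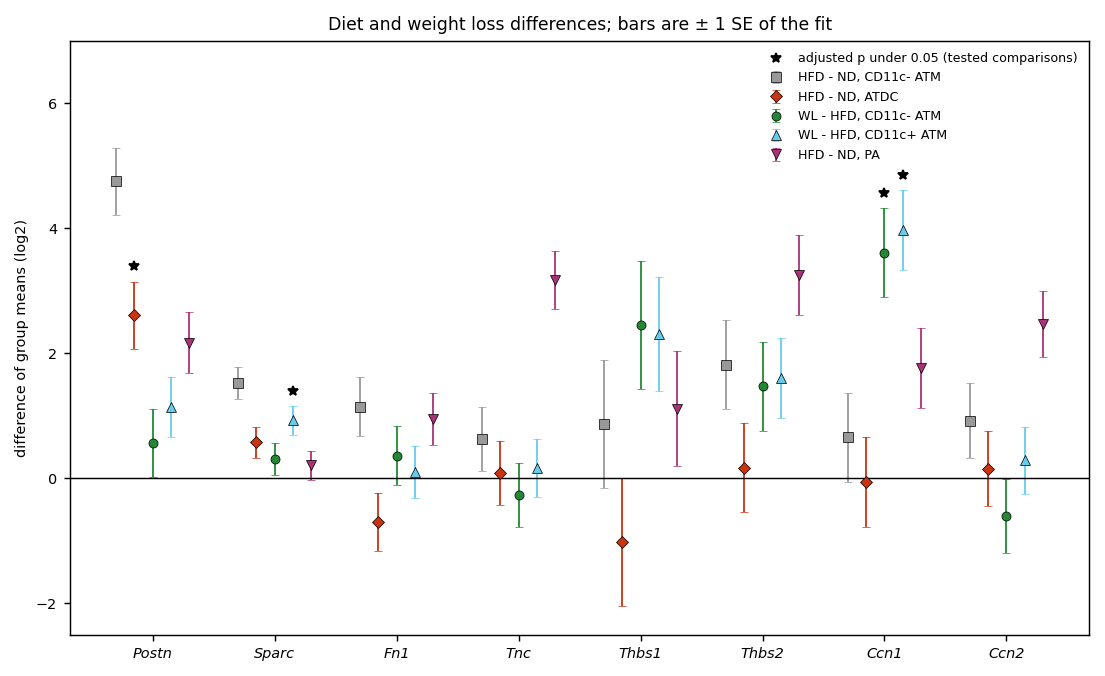
Difference of group means (log2, vertical axis) for each member in 5 comparisons of diet or weight loss, with bars of ± 1 SE of the limma fit and a star where a tested difference had an adjusted p under 0.05. The 2 HFD minus ND comparisons in CD11c- ATM and in PA were not tested; Ccn1 is starred in both weight loss comparisons, at 3.61 and 3.97, and Postn in ATDC, at 2.61.

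Markers of other cell types and stimulation genes moved with these weight loss differences. The fibroblast marker level was higher in WL than in HFD for CD11c+ ATM without overlap, with 3 of 14 markers called by limma, and overlapped for CD11c- ATM, with 0 of 14 called. In a list of 24 immediate early and dissociation genes, which respond within minutes to stimulation and to tissue digestion, limma called 4 higher in WL CD11c- ATM, led by Egr3 (3.81 ± 0.71, adjusted p = 0.0062) and Nr4a1 (3.68 ± 0.56, adjusted p = 0.0014). Leaving out 1 array gave 2 or 3 of that list. The list's level was 9.27 to 9.39 in WL and 8.12 to 8.31 in HFD CD11c- ATM. In CD11c+ ATM it was 7.90 or more after weight loss and 7.48 to 7.92 on HFD, and 1 of 24 was called, Socs3 (1.48 ± 0.26, adjusted p = 0.0089), lost without HFD replicate 2 (adjusted p = 0.0503) or HFD replicate 3 (0.0518); 2 of 24 were called without WL replicate 1. The endothelial marker level was 5.55 to 5.83 in WL and 3.68 to 4.36 in HFD CD11c- ATM, with 2 of 9 called higher. Of 4 tested neutrophil markers limma called 1 higher in WL CD11c- ATM and 2 in WL CD11c+ ATM. The macrophage marker level was 9.83 to 9.84 in WL and 10.16 to 10.39 in HFD CD11c- ATM. In CD11c+ ATM it was 9.52 to 10.11 in WL and 10.15 to 10.37 in HFD, and 0 of 14 were called in either population. The mesothelial marker level, near the array median, was 3.26 to 3.43 in WL and 2.27 to 2.71 in HFD CD11c- ATM. The ND CD11c- ATM arrays had the immediate early list at 8.74 to 8.89, above HFD, with Ccn1 at 4.39 and 3.60. Over the 13 macrophage arrays Ccn1 correlated with that list at r = 0.596 and with the fibroblast marker level at r = 0.779. The part of these markers and stimulation genes in the Ccn1 difference was not tested.

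The difference between the weight loss effects of the CD11c- and CD11c+ populations was tested as an interaction. It called 0 of 8 members by limma, with 0 at an unadjusted p under 0.05, where 0.161% of genes were called and 1044 had an unadjusted p under 0.05. The interaction used the HFD CD11c- ATM arrays, which entered the diet difference by which Postn was chosen. Its count is therefore not independent of that choice. For Ccn1 the effect in CD11c- ATM minus that in CD11c+ ATM was -0.36 ± 0.96 (adjusted p = 0.972), and 0.56 without HFD CD11c- ATM replicate 3.

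Members were also higher in CD11c- macrophages after weight loss than in those of lean mice. WL against ND CD11c- ATM called 4 of 8 members higher and 0 lower, where 3.23% of genes were called higher and 2.95% lower. These ND arrays also entered the diet difference by which Postn was chosen. The Postn result and the count are therefore not independent of that choice. Postn was higher by 5.31 ± 0.59 (limma adjusted p = 2.65e-05), Ccn1 by 4.27 ± 0.78 (0.0029), Thbs2 by 3.29 ± 0.78 (0.0152) and Sparc by 1.83 ± 0.28 (0.00075), each on 2 of 2 arrays. Both ND arrays were under their medians for Thbs2, so that difference is at least 3.05, and its call was lost without ND replicate 1 (adjusted p = 0.0890), ND replicate 2 (0.0878) or WL replicate 1 (0.0989). Thbs1 (3.32 ± 1.12, adjusted p = 0.0900) and Fn1 (1.52 ± 0.51, adjusted p = 0.0907) were higher without overlap and not called. Of the 14 fibroblast markers 10 were called higher in the same comparison, as were 4 of 9 endothelial markers, with a level of 5.55 to 5.83 against 3.58 to 4.23. Of 4 tested neutrophil markers 2 were called higher, with the level of all 6 at 2.70 to 2.88 against 2.14 to 2.67. The macrophage marker level was 9.83 to 9.84 in WL and 10.26 to 10.33 in ND CD11c- ATM, with 2 of 14 called higher and 1 lower. The part of these markers was not tested.

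Within a diet no member was called between CD11c+ and CD11c- macrophages. Lower in CD11c+ cells without overlap were 3 members on HFD and 3 after weight loss. Of all 15496 tested genes, 1722 on HFD and 1939 after weight loss were higher in CD11c+ cells without overlap. The genes lower without overlap were not counted over all, so nothing is read from such counts in these comparisons. On HFD, CD11c+ against CD11c- ATM called 0 of 8 by limma, with 5 at an unadjusted p under 0.05; of all genes 0.00645% were called and 997 had an unadjusted p under 0.05. Postn (-1.82 ± 0.48, adjusted p = 0.391), Sparc (-0.79 ± 0.23, adjusted p = 0.426) and Ccn2 (-1.25 ± 0.53, adjusted p = 0.729) were lower in CD11c+ cells without overlap. The HFD CD11c- ATM arrays also entered the diet difference by which Postn was chosen. The Postn result and the counts on HFD are therefore not independent of it. After weight loss 0 of 8 were called, with 1 at an unadjusted p under 0.05; of all genes 1.34% were called and 2280 had an unadjusted p under 0.05. Lower in CD11c+ cells without overlap were Postn (-1.24 ± 0.54, adjusted p = 0.285), Thbs1 (-1.93 ± 1.03, adjusted p = 0.398) and Tnc (-0.60 ± 0.52, adjusted p = 0.630). No WL CD11c+ array and 1 WL CD11c- array had Tnc above its median. No fibroblast marker was called in either comparison, and 5 of 14 on HFD and 11 of 14 after weight loss were lower in CD11c+ cells without overlap.

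HFD ATDC against HFD CD11c+ ATM called 0 of 8 members by limma and 0 at an unadjusted p under 0.05, where 4.16% of genes were called and 2431 had an unadjusted p under 0.05. All 8 members overlapped between these groups. Postn differed by -0.45 ± 0.48 (adjusted p = 0.756).

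In preadipocytes the diet differences of all 8 members were positive, while the fibroblast marker levels of ND and HFD PA overlapped. These values chose Tnc and are a description. Of the 8 members 6 were higher in HFD PA without overlap, all but Thbs1 and Fn1, where 9.03% of genes were higher without overlap; the rule used this comparison, so nothing is read from the count. Thbs2 measured 6.25, 3.60 and 5.93 in ND PA and 8.61, 8.57 and 8.37 in HFD PA, a difference of 3.25 ± 0.64. Tnc measured 2.37 to 2.76 in ND PA, under the array median, and differed by 3.17 ± 0.46, or at least 2.66.

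Ccn2 measured 5.68, 4.72 and 4.11 in ND PA and 6.31, 7.80 and 7.81 in HFD PA, a difference of 2.47 ± 0.53. Postn measured 9.20, 8.87 and 8.99 against 11.05, 11.32 and 11.20, a difference of 2.17 ± 0.48. Ccn1 measured 7.31, 4.86 and 5.68 against 7.42, 7.69 and 8.02, a difference of 1.76 ± 0.64, with ND replicate 1 just under the lowest HFD array. Sparc differed least, with 10.14 to 10.20 in ND and 10.22 to 10.53 in HFD PA (0.21 ± 0.23). Thbs1 differed by 1.12 ± 0.92, with ND replicate 1 (9.45) above every HFD array, and Fn1 by 0.95 ± 0.42, with ND replicate 1 (11.13) inside the HFD range. The macrophage markers were also higher in HFD PA, at 6.28 to 8.39 against 4.37 to 5.83. So was the level of the pericyte and smooth muscle markers, at 5.16 to 5.77 against 4.47 to 4.63. The endothelial marker level was 4.720 to 5.136 in HFD PA and 3.061 to 4.718 in ND PA. The part of these markers was not tested.

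In HFD against ND CD11c- ATM, the other comparison behind the choice of genes, 3 of 8 members were higher without overlap (Postn, Sparc and Thbs2), where 14.1% of genes were. Thbs2 differed by 1.82 ± 0.71, or at least 1.58 because both ND arrays were under their medians. Fn1 (1.15 ± 0.47), Ccn2 (0.92 ± 0.60), Thbs1 (0.87 ± 1.03), Ccn1 (0.66 ± 0.71) and Tnc (0.63 ± 0.52) overlapped. All 8 differences were lower without HFD replicate 3. Without it Thbs2 differed by 1.12, Fn1 by 0.77, Ccn2 by 0.18, Thbs1 by 0.03, Ccn1 by -0.26 and Tnc by -0.03, while Sparc differed by 1.31.

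Members that differed between preadipocytes and macrophages were all higher in preadipocytes. ND PA against ND CD11c- ATM called 4 of 8 members higher and 0 lower, where 12.6% of genes were called higher and 10.8% lower. The ND CD11c- ATM arrays also entered the diet difference by which Postn was chosen, and the ND PA arrays that by which Tnc was chosen. The results of Postn and Tnc and the count are therefore not independent of these choices. Postn was higher by 4.83 ± 0.54 (limma adjusted p = 1.15e-06), Sparc by 2.13 ± 0.25 (2.36e-06), Thbs2 by 2.38 ± 0.71 (0.0183, at least 2.15) and Fn1 by 1.40 ± 0.47 (0.0342), each on 3 of 3 arrays. The calls of Postn and Sparc held in every leave-out. That of Thbs2 was lost without ND CD11c- ATM replicate 1 (adjusted p = 0.0990) or 2 (0.0860) or ND PA replicate 1 (0.0859) or 3 (0.0754). That of Fn1 was lost without ND CD11c- ATM replicate 2 (0.310) or ND PA replicate 1 (0.167) and with the replicate block (0.0601), while Ccn1 was called without ND PA replicate 2 (2.50, adjusted p = 0.0207). The number called in leave-outs ran from 2 to 5.

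HFD PA against HFD CD11c+ ATM called 7 of 8 members higher and 0 lower, where 11.7% of genes were called higher and 13.5% lower. The HFD PA arrays also entered the diet difference by which Tnc was chosen, so the Tnc result and the count are not independent of it. Thbs2 was higher by 5.18 ± 0.64, Thbs1 by 4.64 ± 0.92, Ccn1 by 4.15 ± 0.64 and Postn by 4.07 ± 0.48. Ccn2 was higher by 3.74 ± 0.53, Tnc by 3.23 ± 0.46, or at least 2.71, and Sparc by 1.61 ± 0.23. The exception was Fn1 (1.03 ± 0.42, adjusted p = 0.0816), which macrophages also carried at 9.72 to 10.39. These 7 calls held in every leave-out. The median over the members was 3.91, against -0.07 over all tested genes.

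**Figure D4:**
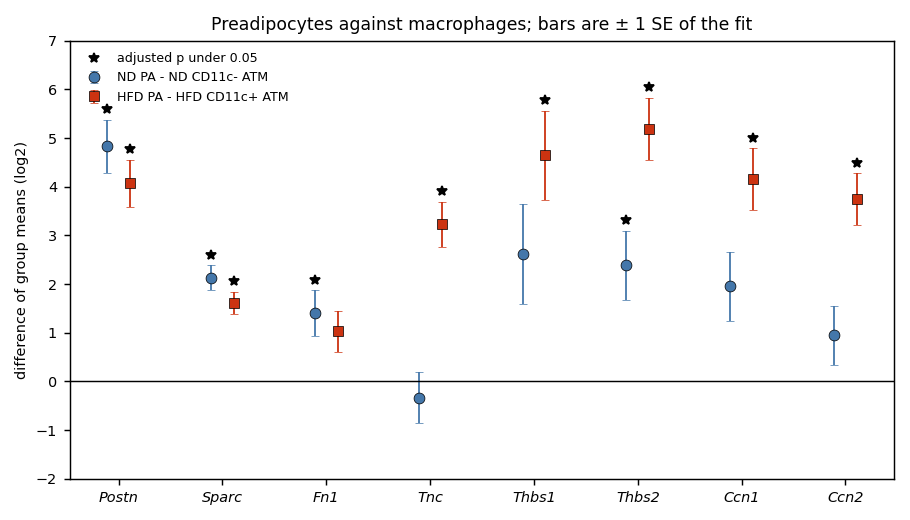
Difference of group means (log2, vertical axis) for each member between preadipocytes and macrophages, on ND against CD11c- ATM (circles) and on HFD against CD11c+ ATM (squares), with bars of ± 1 SE of the limma fit and a star where the adjusted p was under 0.05. On HFD 7 of 8 members are starred, and on ND 4 of 8; the macrophage populations compared differ between the diets.

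Other genes of the matricellular families separated the same cell types. Of 19 tested relatives, 12 were called higher and 1 lower in ND PA against ND CD11c- ATM, and 13 higher and 1 lower in HFD PA against HFD CD11c+ ATM. All 6 tested fibulins, which link elastic fibres to other matrix proteins, were higher in both, among them Fbln5 by 4.88 ± 0.58 on ND and Fbln2 by 4.92 ± 0.58 on HFD. Smoc2, a SPARC relative, was higher by 5.88 ± 0.56 and 4.82 ± 0.50, and Thbs3 by 3.02 ± 0.51 and 3.99 ± 0.46. Tnxb, a tenascin that shapes collagen fibrils, was higher by 4.84 ± 0.67 and 4.66 ± 0.60. The gene called lower in both was Tgfbi, a fasciclin-domain relative of periostin that macrophages make, by -4.00 ± 0.36 and -1.89 ± 0.33. These named calls held in every leave-out (highest limma adjusted p 0.0065, for Thbs3 on ND).

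In WL against ND CD11c- ATM, 9 of 19 relatives were called higher and 0 lower, among them Tnxb (3.80 ± 0.73), Efemp1 (3.22 ± 0.63) and Sparcl1 (3.15 ± 0.55). With ND replicate 1 left out 5 were called, with ND replicate 2 left out 1, and with WL replicate 1 left out 4. Sparcl1 was also the 1 relative called in WL against HFD CD11c+ ATM, by 2.47 ± 0.45 (limma adjusted p = 0.0112), lost without HFD replicate 2 (0.0642) or HFD replicate 3 (0.0809). In WL against HFD CD11c- ATM limma called 0 of 19, but 5 with HFD replicate 3 left out, the array that stood apart (2 of the SPARC family, 1 tenascin and 2 fibulins). In HFD against ND ATDC it called 0 of 19.

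The matrix partners of the members, collagens and the enzymes that process or crosslink them, were higher in preadipocytes as well. Of 14, limma called 14 higher in ND PA against ND CD11c- ATM, 13 in HFD PA against HFD CD11c+ ATM and 11 in WL against ND CD11c- ATM (6 without ND replicate 2 and 7 without WL replicate 1). Col6a1 was higher by 5.72 ± 0.54 in ND PA and by 4.80 ± 0.60 in WL CD11c- ATM against ND CD11c- ATM. In WL against HFD CD11c+ ATM 2 were called, Bmp1 (2.39 ± 0.58, adjusted p = 0.0485), the protease that trims procollagen, and Col5a2 (1.97 ± 0.46, adjusted p = 0.0401). The count was 0 or 1 with any 1 array of these groups left out.

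Receptors of these proteins went both ways. Of 18 integrin, syndecan and scavenger receptor genes, 6 were called higher and 5 lower in ND PA against ND CD11c- ATM, and 3 higher and 5 lower in HFD PA against HFD CD11c+ ATM. The 11 called on ND were 7 without ND CD11c- ATM replicate 1 or ND PA replicate 1, and the shares over all genes were 12.6% higher and 10.8% lower. Stab1 (stabilin 1, a macrophage scavenger receptor that clears SPARC) was lower by -5.86 ± 0.42 and Itgb2, the leukocyte integrin beta chain, by -5.42 ± 0.69 in ND PA. Sdc2, a syndecan, was higher by 4.70 ± 0.78 and Vldlr by 4.02 ± 0.47 in HFD PA. HFD ATDC against HFD CD11c+ ATM called 1 higher, Itga8 (2.04 ± 0.41), and 3 lower, led by Stab1 (-3.46 ± 0.38). In WL against ND CD11c- ATM limma called 1, Itgav, the alpha chain of the integrin that binds periostin and CCN1 (1.33 ± 0.37, adjusted p = 0.0378), and that call was lost with any 1 of the 4 arrays left out. In both WL against HFD comparisons and in HFD against ND ATDC limma called 0 of 18. Single arrays changed each of these: 2 were called without HFD CD11c- ATM replicate 3, 1 without WL CD11c+ ATM replicate 3 and 1 without ND ATDC replicate 2.

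Genes of the signals known to act upstream of the members were counted in the same way, and the shares of all genes called are those given with the member counts (12.6% higher and 10.8% lower in ND PA, 11.7% and 13.5% in HFD PA, against macrophages). Of 12 TGF-beta ligands, receptors and SMADs, 4 were higher and 1 lower in ND PA against ND CD11c- ATM, and 5 higher and 2 lower in HFD PA against HFD CD11c+ ATM, led by Tgfbr3 (4.77 ± 0.44 and 3.97 ± 0.40) and Tgfb3 (3.30 ± 0.49 and 3.52 ± 0.44). In WL against ND CD11c- ATM 3 were higher, with Tgfbr3 at 2.84 ± 0.48 (adjusted p = 0.0018, called whichever array was left out), and only 1 was called with ND replicate 2 or WL replicate 2 left out. Of 11 genes of the YAP, TEAD and SRF factors, 4 were higher and 1 lower in ND PA (3 in all without ND CD11c- ATM replicate 2) and 4 higher and 2 lower in HFD PA, with Wwtr1 (TAZ) at 2.99 ± 0.46 and 3.66 ± 0.41. Of 11 tested YAP and SRF targets other than the members, limma called 5 higher in ND PA and 6 higher and 1 lower in HFD PA, among them Amotl1 and Myl9. In WL against HFD limma called 0 of these 11 targets and 0 of the 12 TGF-beta and 11 YAP, TEAD and SRF genes, in both macrophage populations. These zeros depended on single arrays. In CD11c- ATM 1 gene of each of the 3 lists was called with HFD replicate 3 left out, and 1 TGF-beta gene and 1 target with WL replicate 2 left out. In CD11c+ ATM 2 TGF-beta genes were called with WL replicate 3 left out and 1 target with WL replicate 2 left out.

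Genes most like each member over the 24 arrays were named by Pearson correlation, which here mostly follows the cell types and carries no test. For Postn they were Col3a1 (r = 0.957), Col1a2 and Col6a1, and for Sparc Lum (0.979), Col1a2 and Bgn. For Thbs2 they were Fbln7 (0.959), Cilp and Mrc2, and for Thbs1 Fbln2 (0.862), Hspb1 and Mrc2. For Ccn1 they were Adamts1 (0.894), Id3 and Tnfaip6, and for Ccn2 Hmcn1 (0.911), Pcdhb3 and Map3k7cl. For Tnc they were Map3k7cl (0.913), Rasl11a and Tagln. Fn1 had the lowest best likeness, with S100a11-ps (0.802), Mical1 and Uri1.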

How the data were processed

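The values analysed were the deposited normalised log2 values of 41345 probe rows on 24 arrays, made by the authors with RMA, oligo and limma per the submitters' processing notes, with no versions given. RMA quantile-normalises arrays, so shifts shared by all genes are removed. Probe rows with exactly 1 symbol in the platform annotation named 22180 genes, and of several rows the one with the highest mean was used. Genes with at least 2 arrays above that array's own median, 15496, entered 1 limma 3.58.1 fit (R 4.3.3; lmFit, eBayes) with 1 mean per title group and 15 residual degrees of freedom. Tests were two-sided, with Benjamini-Hochberg adjustment within each comparison, and the code was tested on simulated data. Where no array of a group was above its median, the least difference was taken to that median. Background calls were not used here, and the number of arrays limits the precision.

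The members and the gene lists were chosen with earlier results of these data known. The text names all members; from each list other than the markers, up to 2 called genes with the largest difference per tested comparison; the 3 tested genes most correlated with each member, passing over unnamed gene models; and defining markers. Some collagen genes and markers beyond that rule were chosen after their values were seen. Alternatives covered the probe row, the filter, trend and array weights in limma, centring, the replicate block, the arrays fitted and each array left out.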

Additional observations from a re-analysis of the deposited data

How the results depend on the processing

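Of 35 member differences tested and reported one by one, 23 kept their direction and their side of the threshold under every alternative run. Of 516 alternative values, 471 did so, 37 lost the call, 5 gained it and 3 changed sign: Thbs2 in HFD against ND ATDC (-0.041 with the replicate block) and the Ccn1 interaction (0.56 without HFD CD11c- ATM replicate 3, and without both that array and ND PA replicate 1, an alternative added after seeing the data; -1.22 to 0.56 over all leave-outs). For 45 smaller differences given only by count, 38 of 708 alternative values changed sign and 0 were called. The number of members called fell from 1 to 0 in HFD against ND ATDC with no filter, array weights, each array minus its median, the replicate block or only the arrays compared, and to 0 in each leave-out. It fell from 1 to 0 in WL against HFD CD11c- ATM with array weights or only the arrays compared (leave-outs 0 to 1). It fell from 2 to 1 in WL against HFD CD11c+ ATM with the row of highest variance, no filter, array weights, each array minus its median, the replicate block or only the arrays compared (leave-outs 1 to 2). It fell from 4 to 2 in ND PA against ND CD11c- ATM with only the arrays compared (leave-outs 2 to 5). The described Ccn2 difference between HFD and ND PA was 1.28 with the mean of its 2 probe rows. The labels do not say whether same-numbered samples came from the same mice; correlations of their deviations ran from -0.13 to 0.25, with 2 of 3 pairs above 0.1 in HFD PA against HFD CD11c+ ATM and in no comparison all, so the samples were not treated as paired. Groups of 2 or 3 arrays and levels near the array median limit what could be called.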
